A study of Mus musculus with 12 samples.

Results

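Insulin-like growth factor 1, its receptors and the proteins that bind it are described here by 9 genes: Igf1, Igf1r, Igf2r, Igfbp2, Igfbp3, Igfbp4, Igfbp5, Igfbp6 and Igfbp7. They were taken by gene symbol from the 54134 genes of the raw count table of inguinal white adipose tissue (iWAT), and each symbol had a single gene identifier. All 9 passed the filter on low counts, and so were among the 15585 genes tested. RNA-seq had been run on iWAT of male C57BL/6J mice injected in the tail vein at 8 weeks of age with an adeno-associated virus (AAV) that encoded either GFP (AAV-GFP, 6 mice) or mouse Notum (AAV-Notum, 6 mice). NOTUM is a secreted enzyme that inactivates Wnt proteins. Both vectors carried a liver-specific TBG promoter, meant to expose the fat to the product of another organ. Every control thus also carried a virus and a foreign protein. All mice ate chow for 4 weeks after the injection and were fasted for 4 h before iWAT was taken at 12 weeks of age. Each library came from the iWAT of 1 mouse, and mice are named here by group and by the number in their labels.

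IGF1 is a peptide hormone made mainly by the liver under growth hormone, and adipocytes and other cells of fat also make it and use it locally. It signals through the receptor tyrosine kinase IGF1R, whereas IGF2R, the cation-independent mannose-6-phosphate receptor, carries IGF2 and lysosomal enzymes to lysosomes and has no kinase. The IGF binding proteins (IGFBPs) are secreted carriers that hold IGFs away from the receptor or bring them to it, and proteases such as pappalysin release the hormone by cutting them. IGFBP3 forms the large circulating complex together with the acid-labile subunit IGFALS, IGFBP6 prefers IGF2, and IGFBP7 binds IGFs weakly and is deposited in the walls of vessels.

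The libraries held 15266635 to 21618860 counts in AAV-GFP mice and 14711113 to 17838229 in AAV-Notum mice, with RNA integrity numbers of 5.7 to 7.6 and 6.9 to 7.4. Adipocyte markers were high in every mouse, and none of the 8 markers of that list was at 0 reads. The libraries AAV-GFP-2011 and AAV-GFP-2014 stood apart in 12 lymphoid markers, whose mean log2 level in CPM (counts scaled to library size) was 0.02 and -0.63 there against 4.23 to 7.39 in the other 10. Transcripts made by hepatocytes, such as Alb, were high in AAV-GFP-2013 (3805 CPM) and AAV-GFP-2014 (963 CPM). RNA of AAV-GFP-2012 was isolated 22 days after collection and that of every other mouse after 2 days. Notum itself, which the vector was designed to express in liver, had 0.0595 to 0.995 CPM in AAV-GFP mice. AAV-Notum-2032 and AAV-Notum-2041 had 29.3 and 26.6 CPM and the other 4 AAV-Notum mice 0.457 to 0.905 CPM. The source of these Notum reads in iWAT was not tested.

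The main question was whether the transcripts of the IGF system differed in iWAT between AAV-Notum and AAV-GFP mice. In edgeR's quasi-likelihood test, 0 of the 9 genes passed an adjusted p of 0.05 and 0 passed an unadjusted p of 0.05 in either direction. Over all 15585 genes, 8 genes (0.0513%) passed the adjusted threshold, all of them lower in AAV-Notum mice. At the unadjusted threshold 9.54% of all genes were lower and 4.64% were higher. DESeq2 gave 0 of 9 at its adjusted threshold as well, against 2.85% of the genes for which it gave an adjusted p, with 0.298 as the smallest adjusted p of a member. At an unadjusted p of 0.05 DESeq2 passed Igfbp6 as lower and Igfbp3 as higher (5.87% and 3.34% of all genes with a p-value). In two-sided exact permutation tests over the 924 assignments of the 12 mice, 0 of 9 had a p under 0.05 against 13.2% of all genes. Of the log2 fold changes (AAV-Notum over AAV-GFP), 7 were below 0 and 2 above, with a median of -0.16 beside 0.01 over all genes tested. In samples of whole tissue, fewer cells of a type and less RNA per cell cannot be told apart, which holds for every level that follows. The mice of a group were separate animals, and the errors are those between animals.

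**Figure D1:**
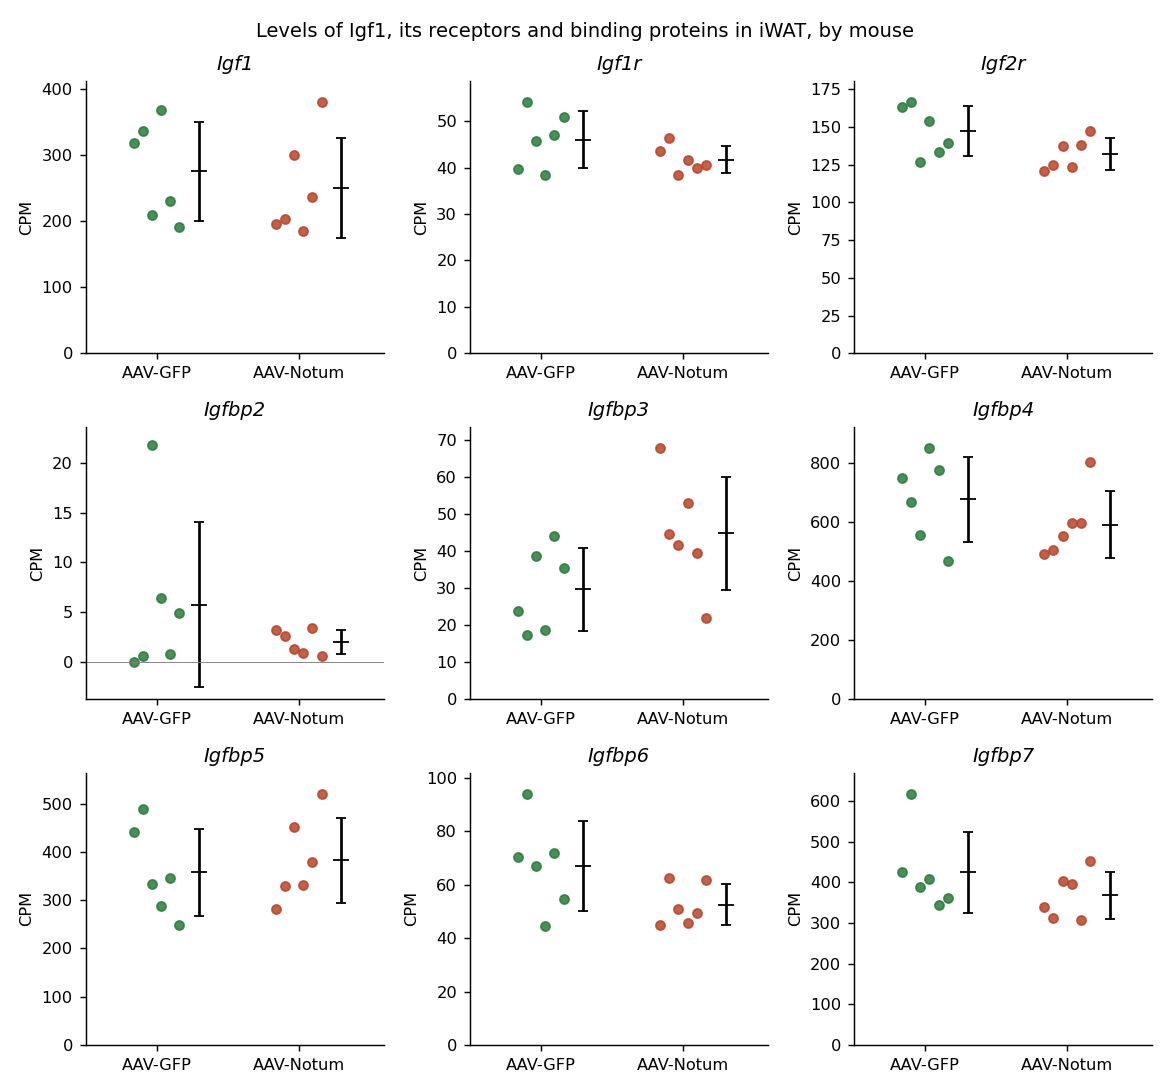
Level of each of the 9 genes in CPM on a linear axis, with 1 point per mouse for 6 AAV-GFP (green) and 6 AAV-Notum mice (red) and the mean and SD as black bars. The groups overlapped for every gene, 3 of the 6 AAV-Notum points lay under the AAV-GFP range for Igf2r, all 6 lay inside it for Igfbp6, and 3 lay above it for Igfbp3.

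Igf1 (ENSMUSG00000020053), the ligand, lies at chr10:87858265-87937042 on the plus strand of GRCm38. Its level ran from 191 CPM through a median of 274 to 368 CPM in AAV-GFP mice and from 185 through 219 to 380.0 CPM in AAV-Notum mice. Of the AAV-GFP mice 3 had 318 CPM or more and 3 had 230.0 CPM or less, while 4 of the 6 AAV-Notum mice lay under the control mean, so the groups overlapped throughout. The means were 275 ± 74.5 and 250.1 ± 76.1 CPM (SD, n = 6 each). Its log2 fold change was -0.14 (standard error, SE, 0.22, 95% interval -0.61 to 0.34, edgeR adjusted p = 0.736), and the exact permutation test gave p = 0.537. The interval reaches from a level 0.654 times to one 1.26 times that of the AAV-GFP mice. The antisense transcript Igf1os, which overlaps the gene but shares no exon with it, held 21 to 50 reads per mouse against 3095 to 6179 for Igf1. The direction of the Igf1 difference depended on the mice poor in lymphoid transcripts: without AAV-GFP-2011 and AAV-GFP-2014 the log2 fold change was 0.05.

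Igf1r (ENSMUSG00000005533, chr7:67952827-68233668, plus strand), the kinase receptor, had 38.4, 46.4 and 54.1 CPM as the lowest, median and highest level in AAV-GFP mice. In AAV-Notum mice these were 38.3, 41.0 and 46.5 CPM. The groups overlapped, with 5 of 6 Notum-treated mice under the control mean. The log2 fold change was -0.14 (SE 0.09, edgeR adjusted p = 0.463), with an interval from -0.34 to 0.06 and an exact permutation p of 0.171. The spread between mice was narrow for this gene, with a biological coefficient of variation of 0.149 that is larger in 84.6% of all genes tested. AAV-GFP-2014 and AAV-GFP-2011 had the least Igf1r of the controls (38.4 and 39.7 CPM), so leaving them out widens the difference by itself. Without them the log2 fold change was -0.25 (unadjusted p = 0.00902, adjusted p = 0.530 in edgeR's test). Without AAV-GFP-2012, the highest control, it was -0.09 (unadjusted p = 0.334 in edgeR's test).

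Igf2r (ENSMUSG00000023830, chr17:12682406-12769664, minus strand), the scavenging receptor, had 127, 147 and 167 CPM as the lowest, median and highest level in AAV-GFP mice. The AAV-Notum mice had 121, 131 and 148 CPM. The groups overlapped, with 3 AAV-Notum mice under the whole control range and the other 3 inside it. The means were 147 ± 16.5 and 132 ± 10.4 CPM (SD, n = 6 each), a log2 fold change of -0.16 (SE 0.09, edgeR adjusted p = 0.411, exact permutation p = 0.0866). Its coefficient of variation, 0.143, was also among the smaller ones. The overlapping noncoding transcript Airn runs on the opposite strand, shares no exon with Igf2r and held 99 to 175 reads per mouse. Airn had 7.90 to 9.53 CPM in AAV-GFP and 6.02 to 7.90 CPM in AAV-Notum mice, lower without overlap but by a margin under the precision printed (0.693% of all genes were lower without overlap). Its log2 fold change was -0.36 (SE 0.10, edgeR adjusted p = 0.161, exact permutation p = 0.00216). The mannose-6-phosphate route that delivers cargo to this receptor was covered by a list of 4 genes (M6pr, Gnptab, Gnptg, Nagpa), and 0 of 4 passed an unadjusted p of 0.05 in edgeR's test. M6pr, the small cation-dependent receptor of the same route, differed most, with 130.5 ± 7.69 and 141 ± 3.76 CPM (SD, n = 6 each). Its log2 fold change was 0.11 (edgeR adjusted p = 0.378, exact permutation p = 0.0173).

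The 6 binding proteins were compared with each other per length, as TPM, which divides the reads by the merged exons of each gene and scales every library to the same total. Igfbp7 was the most abundant at a median of 975 TPM (range 637 to 1495 over the 12 mice), followed by Igfbp4 at 418 TPM (341 to 554). Both orders held in 12 of 12 mice. Igfbp5 (median 181 TPM) and Igfbp6 (152 TPM) were neighbours that did not separate, since Igfbp5 was the higher of them in 7 of 12 mice. Igf1 came next at 71.7 TPM, below Igfbp6 in 12 of 12 mice and above Igf2r (46.0 TPM) in 12 of 12. Igf2r exceeded Igfbp3 (37.8 TPM) in 9 of 12 mice, so these also overlapped. Igf1r (8.31 TPM) and Igfbp2 (3.39 TPM) were the lowest, Igf1r above Igfbp2 in 10 of 12 mice. The 6 binding proteins together reached 1285 to 2440.4 TPM per mouse, 16.9 to 30.8 times the Igf1 level of the same mouse. Igfbp7 and Igfbp4 made up 74.6% to 84.5% of that sum. Igfbp3 took 1.58% ± 0.742 of it in AAV-GFP mice and 2.64% ± 1.08 in AAV-Notum mice (SD, n = 6 each), and Igfbp5 took 9.28% ± 1.21 and 11.2% ± 1.48. These shares were not tested.

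**Figure D2:**
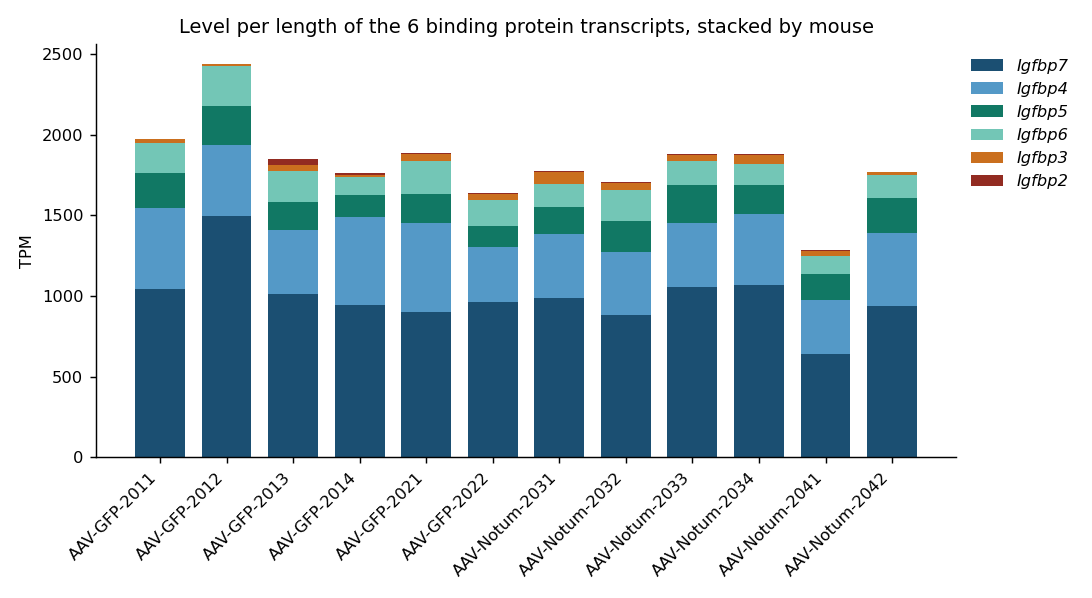
Level per length (TPM) of the 6 binding protein transcripts, stacked in 1 bar per mouse, with 6 AAV-GFP mice on the left and 6 AAV-Notum mice on the right. Igfbp7 fills between 47.7% and 61.3% of each bar, and the tallest and the shortest bar, 2440.4 and 1285 TPM, are AAV-GFP-2012 and AAV-Notum-2041.

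Igfbp7 (ENSMUSG00000036256, chr5:77349240-77408041, minus strand), abundant in endothelial cells, had 344, 398 and 618 CPM as the lowest, median and highest level in AAV-GFP mice. In AAV-Notum mice the values were 306, 368 and 453 CPM. AAV-GFP-2012 was far above the other controls, which lay between 344 and 426 CPM, and 3 mice given AAV-Notum lay under all controls. The log2 fold change was -0.20 (SE 0.15, edgeR adjusted p = 0.499, exact permutation p = 0.249), and without AAV-GFP-2012 it was -0.07. The neighbouring Polr2b on the opposite strand shares 85 bp of exon with Igfbp7 and held 1070 to 1628 reads per mouse, so part of the reads of this stretch may have been counted to either gene.

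Igfbp4 (ENSMUSG00000017493, chr11:99041244-99054392, plus strand), a carrier that pappalysin cuts, had the most reads of the 9 genes, 7598 to 16795 per mouse. Its lowest, median and highest level were 468, 708 and 851 CPM in AAV-GFP mice and 493, 574 and 802 CPM in AAV-Notum mice. Only AAV-Notum-2042 stood above the AAV-GFP mean, and the other 5 AAV-Notum mice lay in the lower part of the control range. The log2 fold change was -0.20 (SE 0.16, edgeR adjusted p = 0.533, exact permutation p = 0.281). Without AAV-GFP-2014, the highest control, it was -0.12, and without AAV-Notum-2042 it was -0.30 (unadjusted p = 0.485 and 0.0723 in edgeR's test).

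Igfbp5 (ENSMUSG00000026185, chr1:72857932-72874884, minus strand), a binding protein that adheres to extracellular matrix, showed the closest group means. Its lowest, median and highest level were 249, 339.5 and 489 CPM in AAV-GFP mice and 282, 355 and 521 CPM in AAV-Notum mice. The mice of the groups were intermixed, 3 AAV-Notum mice above and 3 below the AAV-GFP mean, with a log2 fold change of 0.10 (SE 0.19, edgeR adjusted p = 0.790, exact permutation p = 0.602). Its 95% interval, -0.32 to 0.51, leaves room for a level between 0.803 and 1.42 times that of the controls. Without AAV-Notum-2042, the highest mouse, the value was -0.01.

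Igfbp6 (ENSMUSG00000023046, chr15:102144362-102149511, plus strand), whose product prefers IGF2, had the smallest p of the 9 in edgeR's test, though not in the exact permutation test. Its level was 44.4, 68.8 and 94.2 CPM at the lowest, median and highest AAV-GFP mouse and 45.1, 50.2 and 62.4 CPM at the corresponding AAV-Notum mice. None of the 6 mice given AAV-Notum reached the control mean, but AAV-GFP-2014 and AAV-GFP-2022 were as low as they were. The means were 67.1 ± 16.9 and 52.6 ± 7.70 CPM (SD, n = 6 each). The log2 fold change was -0.35 (SE 0.16, 95% interval -0.70 to 0.0011), with p = 0.0506 before and 0.353 after adjustment over all genes in edgeR's test, and an exact permutation p of 0.0887. Among the 29 fits tried, counting the main one, the unadjusted p was under 0.05 in 12, and the adjusted p ran from 0.184 to 0.616. Without AAV-GFP-2012, the highest control, the log2 fold change was -0.23 (unadjusted p = 0.134 in edgeR's test). Without AAV-GFP-2014, the lowest control, it was -0.45 (unadjusted p = 0.00823, adjusted p = 0.318 in edgeR's test).

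Igfbp3 (ENSMUSG00000020427, chr11:7206086-7213923, minus strand), the carrier of the circulating complex, was the only member besides Igfbp5 with a higher mean in AAV-Notum mice. The lowest, median and highest level were 17.2, 29.8 and 44.1 CPM in AAV-GFP mice and 22.1, 43.2 and 68.0 CPM in AAV-Notum mice. The controls fell into 3 mice at 17.2 to 23.9 CPM and 3 at 35.6 to 44.1 CPM, and 3 AAV-Notum mice were above all of them, while AAV-Notum-2042 was as low as the lower controls. The means were 29.7 ± 11.3 and 44.8 ± 15.2 CPM (SD, n = 6 each), a log2 fold change of 0.59 (SE 0.29, 95% interval -0.03 to 1.22). edgeR's test gave p = 0.0614 unadjusted and 0.367 adjusted over all genes, and the exact permutation test gave p = 0.0801. Adjusted for the lymphoid marker score, the value was 0.24 (unadjusted p = 0.375 in edgeR's test), and whether lymphoid content had a part in the group difference was not tested further.

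Igfbp2 (ENSMUSG00000039323, chr1:72824503-72852474, plus strand), a binding protein that liver secretes in quantity, had few reads in most mice and many in 1. It had 0 reads in AAV-GFP-2011, which allows a level of up to 0.168 CPM (3 reads), and 373 reads in AAV-GFP-2013. The lowest, median and highest level were 0, 2.83 and 21.8 CPM among the controls and 0.518, 1.91 and 3.38 CPM among the Notum-treated mice. All of the latter thus lay inside the control range, which was the widest of the 9 genes, with a coefficient of variation of 1.18, above 99.0% of all genes tested. The fitted log2 fold change was -1.54 (SE 1.01, edgeR adjusted p = 0.466) and rested on AAV-GFP-2013: without that mouse it was -0.35. The exact permutation test on log2 CPM gave p = 0.907. Igfbp2 and Igfbp5 lie tail to tail 5457 bp apart on chromosome 1, and their levels after subtraction of the group means had a Pearson r of -0.65 and a Spearman rho of -0.71 over the 12 mice, which did not pass the adjustment over 36 pairs of members (adjusted permutation p = 0.0661 and 0.0826).

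**Figure D3:**
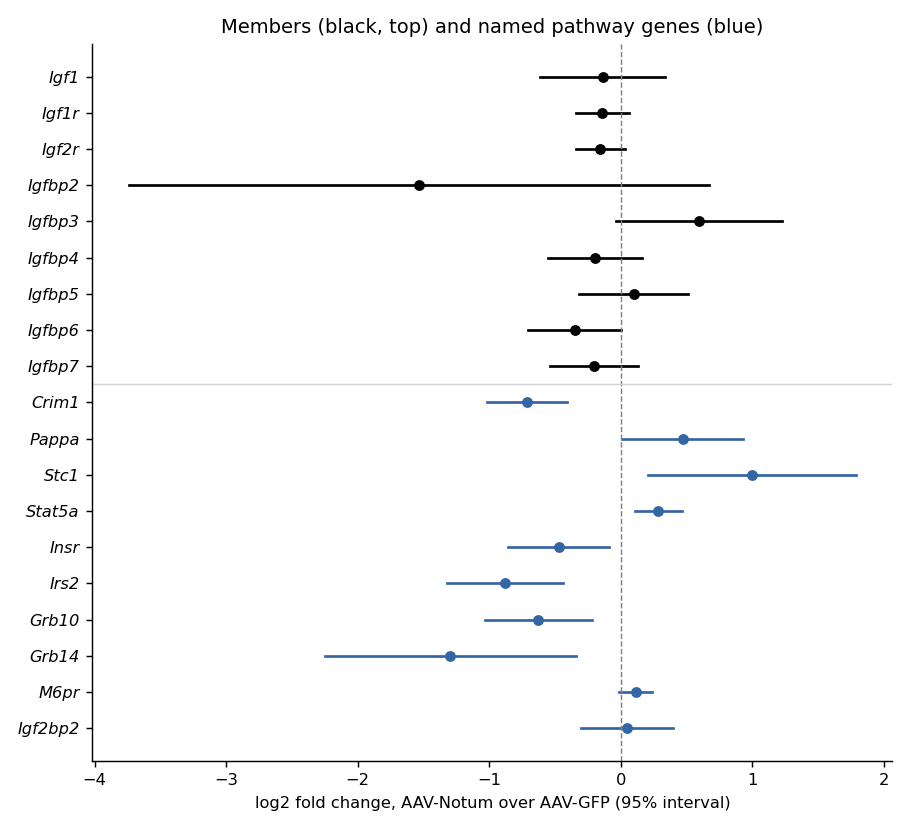
Log2 fold change (AAV-Notum over AAV-GFP) with its 95% interval from edgeR for the 9 genes (black) and for 10 pathway genes chosen by rule (blue). Every interval of the 9 includes 0, and that of Igfbp2 spans -3.74 to 0.67. Of the 10 blue intervals 8 exclude 0. The choice fixed this in advance, since it took partner genes with an unadjusted p under 0.05 in this same fit.

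The promoters of the 3 members with the smallest p are given as the 250 bases before the RefSeq start site (GRCm38.p6), read 5′ to 3′ on the strand of the gene. They lie at chr15:102143936-102144185 (Igfbp6, plus strand), chr11:7213924-7214173 (Igfbp3, minus strand) and chr17:12769707-12769956 (Igf2r, minus strand). Capitals mark matches, on either strand, to the letters searched: GGGCGG (Sp1 GC box), TATAAA (a core element that TBP binds), ATCAAAG (the core that TCF/LEF factors of the Wnt pathway bind) and TTCNNNGAA (STAT5, which acts downstream of growth hormone).
Igfbp6: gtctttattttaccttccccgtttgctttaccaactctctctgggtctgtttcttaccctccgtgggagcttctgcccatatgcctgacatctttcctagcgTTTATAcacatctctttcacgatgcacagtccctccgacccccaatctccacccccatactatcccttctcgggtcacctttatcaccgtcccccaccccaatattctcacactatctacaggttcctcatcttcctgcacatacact
Igfbp3: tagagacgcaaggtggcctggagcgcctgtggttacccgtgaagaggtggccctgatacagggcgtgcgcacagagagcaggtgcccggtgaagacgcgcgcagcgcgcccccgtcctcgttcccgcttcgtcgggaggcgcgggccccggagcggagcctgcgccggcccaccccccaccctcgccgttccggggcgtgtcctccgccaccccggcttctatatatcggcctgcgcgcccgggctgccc
Igf2r: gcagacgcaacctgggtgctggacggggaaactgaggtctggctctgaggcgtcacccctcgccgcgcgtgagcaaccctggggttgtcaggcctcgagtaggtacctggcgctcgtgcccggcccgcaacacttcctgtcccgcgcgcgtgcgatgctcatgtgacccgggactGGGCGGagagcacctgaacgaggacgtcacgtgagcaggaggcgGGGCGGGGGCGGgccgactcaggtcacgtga
Igf2r held 3 GC boxes, Igfbp6 had 1 TBP element on the opposite strand 148 bases before the start, and Igfbp3 had no match in this window although 73.2% of its bases were G or C. No match overlapped another. Across the members' promoters the GC box was found in Igf1r, Igf2r, Igfbp2 and Igfbp7, and the TBP element in Igfbp4 and Igfbp6. The TCF/LEF and STAT5 letters were in no promoter of the 9 genes. Of 32851 mouse promoters of the same length, 32.7% held the GC box, 12.4% the TBP element, 3.21% the TCF/LEF core and 7.02% the STAT5 letters, and these matches describe sequence only.

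The genes around the IGF system were followed in 6 lists with 42 genes, of which 36 could be tested. In edgeR's test 0 of 36 passed an adjusted p of 0.05, while 5 were lower and 3 higher in AAV-Notum mice at an unadjusted p of 0.05, beside 9.54% and 4.64% of all genes. The median log2 fold change over the 36 was -0.05. Of the other ligand and carrier genes, Igf2 was barely detected, with 2 to 8 reads per mouse. Igfbp1, the binding protein most typical of liver, lies 3539 bp from Igfbp3 and had 62 and 32 reads in AAV-GFP-2013 and AAV-GFP-2014 but 0 to 7 in every other mouse. Crim1, a membrane protein with an IGFBP-like motif, was the single gene of these lists that was lower in every AAV-Notum mouse than in any AAV-GFP mouse (against the same 0.693% of all genes). Its level was 72.1 ± 16.9 in AAV-GFP and 44.1 ± 3.15 CPM in AAV-Notum mice (SD, n = 6 each), a log2 fold change of -0.71 (SE 0.14, edgeR adjusted p = 0.102, DESeq2 adjusted p = 0.00112). The exact permutation p of Crim1 was 0.00216, the smallest that 6 mice against 6 can give.

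In the list of binding protein proteases and their inhibitors, 2 of 5 tested genes were higher at an unadjusted p of 0.05 (4.64% of all genes) and none was lower (9.54%). Pappa, the protease that cleaves IGFBP4 and IGFBP5, had 1.10 ± 0.306 and 1.52 ± 0.280 CPM (SD, n = 6 each), on 15 to 36 reads in each library. For Pappa this is a log2 fold change of 0.47 (SE 0.21, edgeR adjusted p = 0.341). Stc1, a stanniocalcin that inhibits pappalysin, had 3.27 ± 1.85 and 6.53 ± 1.95 CPM (SD, n = 6 each), a log2 fold change of 1.00 (SE 0.36, edgeR adjusted p = 0.257). Pappa had an unadjusted p under 0.05 in 15 of the 29 fits, and with the lymphoid score as a covariate the value of Stc1 was 0.56 (unadjusted p = 0.0598 in edgeR's test). Stc2, the other stanniocalcin of the list and the more abundant, had 32.0 ± 13.6 and 27.0 ± 5.45 CPM (SD, n = 6 each) and a log2 fold change of -0.25 (unadjusted p = 0.384 in edgeR's test).

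Among 6 genes of the growth hormone axis, Stat5a, a transcription factor activated by the growth hormone receptor, was higher in all 6 AAV-Notum mice than in any AAV-GFP mouse (0.398% of all genes were higher without overlap). Its level was 75.3 ± 3.73 and 91.7 ± 11.2 CPM (SD, n = 6 each), a log2 fold change of 0.28 (SE 0.08, edgeR adjusted p = 0.170, DESeq2 adjusted p = 0.0243). The other 5 genes of that list had an unadjusted p over 0.05 in edgeR's test, with 2 log2 fold changes above 0 and 3 below.

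In the list of receptor kinases, adaptors and PI3K-AKT genes, 4 of 16 were lower and 0 higher at an unadjusted p of 0.05, beside 9.54% and 4.64% of all genes. Of the 16 log2 fold changes 14 were below 0, as were 48.8% over all genes. Insr, the insulin receptor, had 288 ± 61.5 and 208 ± 50.4 CPM (SD, n = 6 each), a log2 fold change of -0.47 (edgeR adjusted p = 0.270). Irs2, the docking protein of the insulin and IGF1 receptors, had 162 ± 49.8 and 87.7 ± 17.7 CPM (SD, n = 6 each), with 4 AAV-Notum mice below every control. The log2 fold change of Irs2 was -0.88 (SE 0.20, edgeR adjusted p = 0.130, DESeq2 adjusted p = 0.00650). The adaptors Grb10 and Grb14, which restrain these receptors, had log2 fold changes of -0.63 and -1.29 (adjusted p = 0.189 and 0.230 from edgeR), with 53.5 ± 35.0 and 21.8 ± 6.52 CPM (SD, n = 6 each) for Grb14. With the lymphoid score as a covariate the log2 fold change of Grb14 was -0.58 and that of Insr -0.24 (unadjusted p = 0.173 and 0.152 in edgeR's test), and without AAV-GFP-2011 and AAV-GFP-2014 they were -0.67 and -0.37 (0.119 and 0.0891). DESeq2 gave Grb10 an adjusted p of 0.0497, and with Crim1, Irs2 and Stat5a these were the 4 genes of the lists it passed, beside 2.85% of all genes. Of the IGF2 mRNA-binding proteins Igf2bp2 alone could be tested (log2 fold change 0.05, edgeR adjusted p = 0.885).

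Several members varied together between mice of the same group. After the group means had been subtracted from log2 CPM, 8 of 36 pairs of members passed an adjusted permutation p of 0.05 for Pearson's r over the 12 mice, 6 positive and 2 negative. By Spearman's rho 2 of 36 passed, the negative ones. The permutations treat the 12 values as exchangeable although 2 group means had been removed. Both negative pairs involved Igfbp3. Igfbp3 and Igf1 had r = -0.89 and rho = -0.82 (permutation p = 0.00012 and 0.00178, adjusted 0.00216 and 0.0320), with r = -0.90 within the AAV-GFP mice and -0.88 within the AAV-Notum mice. Without the mice farthest from the median Igf1 level, AAV-Notum-2042 and AAV-GFP-2014, r was -0.79. Igfbp3 and Igf2r had r = -0.89 and rho = -0.94 (adjusted permutation p = 0.00216 and 0.00036), and -0.91 without AAV-GFP-2011 and AAV-GFP-2012. Igf1 and Igf2r were positively related, with r = 0.86 and rho = 0.76 (adjusted permutation p = 0.00984 and 0.0649), and r = 0.87 without AAV-Notum-2042 and AAV-GFP-2014. As close a relation was found for 6.99% of all other genes seen from Igf1 and 2.43% seen from Igf2r. Of all other genes tested, 5.02% were at least as negatively related to Igf1 as Igfbp3 was, and 0.834% were to Igfbp3 as Igf1 was. For Igf2r and Igfbp3 these shares were 0.751% seen from Igf2r and 0.635% seen from Igfbp3. The other 5 positive pairs were Igfbp5 with Igf1, Igf2r, Igfbp6 and Igfbp7, and Igf1 with Igfbp4, with r from 0.71 to 0.76, and none of these 5 passed by rho (adjusted permutation p from 0.0826 to 0.161). Of all other genes 18.7% were at least as closely related to Igf1 as Igfbp4 was and 21.5% as Igfbp5 was, while 15.6% were to Igfbp4 and 7.35% to Igfbp5 as Igf1 was. Between Igf2r and Igfbp5 the shares were 16.1% seen from Igf2r and 7.99% seen from Igfbp5. For Igfbp5 with Igfbp6 they were 8.66% seen from Igfbp5 and 0.642% seen from Igfbp6, and with Igfbp7 9.18% and 3.74% seen from Igfbp7. Without the 2 mice farthest from the median of one gene of the pair, r was 0.94 for Igf1 and Igfbp5, 0.54 for Igf1 and Igfbp4, and 0.50, 0.52 and 0.39 for Igfbp5 with Igf2r, Igfbp6 and Igfbp7. Without AAV-GFP-2011 and AAV-GFP-2014 the same 5 values were 0.94, 0.67, 0.79, 0.77 and 0.75.

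Igf1 was also set against the 36 partner genes tested, a comparison chosen after values had been seen. Of these, 24 passed an adjusted permutation p of 0.05 for r, 16 positive and 8 negative, and 20 passed by rho. Such values were common, since 28.2% of all genes were as positively and 27.5% as negatively related to Igf1 as the weakest of these partners in each direction, beside 44.4% and 22.2% of the partners. Ghr, the growth hormone receptor, followed Igf1 most closely (r = 0.95, rho = 0.94, adjusted permutation p = 0.00072 and 0.00108 over 36 genes), with 0.96 within AAV-GFP and 0.95 within AAV-Notum mice. Igfals, the acid-labile subunit, had r = 0.90 and rho = 0.87, and Insr had r = 0.91 and rho = 0.87 (adjusted permutation p for r 0.00162 and 0.00204). Jak2, the kinase bound to the growth hormone receptor, and Socs2, its feedback inhibitor, were inversely related to Igf1, with r = -0.86 and -0.77 and rho = -0.85 and -0.83 (adjusted permutation p for r 0.00252 and 0.00698). Without AAV-Notum-2042 and AAV-GFP-2014 the r with Igf1 was 0.95 for Ghr, 0.92 for Igfals, 0.85 for Insr, -0.83 for Jak2 and -0.78 for Socs2.

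**Figure D4:**
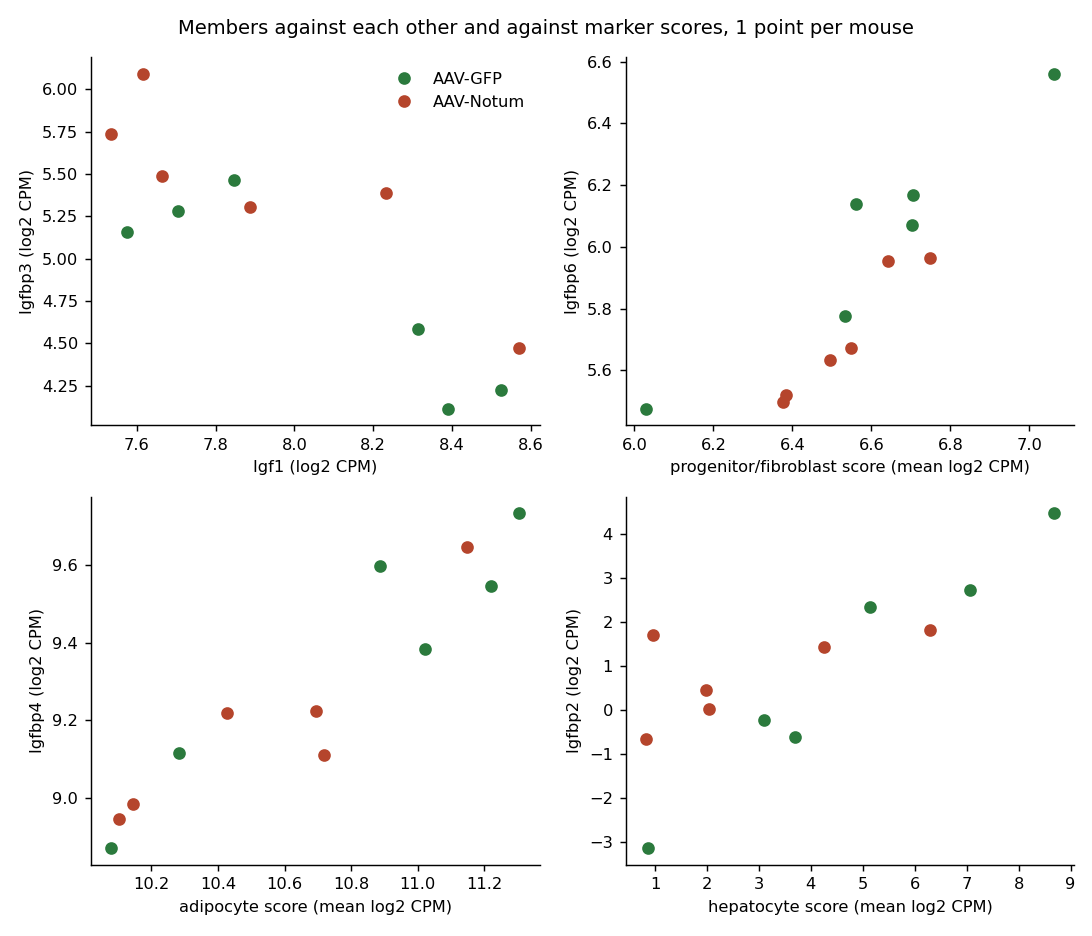
Log2 CPM of Igf1 against Igfbp3 (top left), and of Igfbp6, Igfbp4 and Igfbp2 against the mean log2 CPM of the progenitor or fibroblast, adipocyte and hepatocyte marker lists, with 1 point per mouse in green (AAV-GFP) or red (AAV-Notum). Mice with the most Igf1 had the least Igfbp3 in both groups, and each binding protein rose with its marker score (r = 0.95, 0.93 and 0.86 after subtraction of the group means).

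These differences between mice moved with the levels of cell type markers. Over 81 relations of the 9 genes with 9 marker lists, a comparison added after the data were seen, 29 passed an adjusted permutation p of 0.05 for r, 21 positive and 8 negative, and 20 passed by rho. These 21 and 8 are 25.9% and 9.88% of the members' relations, and over all other genes with the same lists 13.4% and 9.76% of relations were as far in each direction as the weakest of them. Igfbp6 followed the adipose progenitor or fibroblast list (Pdgfra, Dcn, Dpp4, Pi16 and 4 others) with r = 0.95 and rho = 0.94 (adjusted permutation p = 0.00081 and 0.00162), and r = 0.87 without AAV-GFP-2012 and AAV-GFP-2014. Within the groups r was 0.95 and 0.96. Of the 15568 other genes set against this list, 1 had as high an r. The summed level of that list was 1007 to 1675 CPM in AAV-GFP and 989.7 to 1250.1 CPM in AAV-Notum mice. None of its 8 markers was at 0, and 6 of 8 had a log2 fold change below 0. The exact permutation test of its mean score between the groups gave p = 0.649. With the score of that list as a covariate, the log2 fold change of Igfbp6 was -0.26 (unadjusted p = 0.00367, adjusted p = 0.189 in edgeR's test), so a difference of smaller size was left beside a smaller error.

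Igfbp4 followed the adipocyte list (Adipoq, Plin1, Cidec and 5 others) with r = 0.93 and rho = 0.86 (adjusted permutation p = 0.00081 and 0.0130), and r = 0.88 without AAV-GFP-2014 and AAV-Notum-2042. Igf1 followed the same list with r = 0.90 and rho = 0.94 (adjusted permutation p = 0.00283 and 0.00162), and Igfbp3 ran against it with r = -0.76 and rho = -0.85 (0.0257 and 0.0133). Without the 2 mice farthest from the median of the member, these r were 0.85 and -0.72. The endothelial list gave values as large, with r = 0.91 and rho = 0.89 for Igf1 (adjusted permutation p = 0.00283 and 0.00432) and r = -0.87 and rho = -0.83 for Igfbp3 (0.00364 and 0.0167), and r = 0.89 and -0.79 without the same mice. Of all other genes, 4.31% followed the adipocyte list as closely as Igfbp4, 6.92% as closely as Igf1, and 22.6% ran against it as far as Igfbp3. For the endothelial list the shares were 1.95% for Igf1 and 2.99% for Igfbp3. Igf1 also followed the skeletal muscle list (r = 0.85, rho = 0.76, adjusted permutation p = 0.00560 and 0.0332). Igfbp3 ran against that list (r = -0.73, rho = -0.64, adjusted permutation p = 0.0296 and 0.0804). Without the 2 mice farthest from the median of the member these r were 0.91 and -0.79, and 1.69% and 3.54% of all other genes were as far. The summed adipocyte level was 23181 to 39017 CPM in AAV-GFP and 19901 to 46627 CPM in AAV-Notum mice. Of the 8 adipocyte markers 7 had a log2 fold change below 0, none with an unadjusted p under 0.05 in edgeR's test. The exact permutation test of their mean score between the groups gave p = 0.327. With the adipocyte score as a covariate the log2 fold change of Igf1 was 0.07, that of Igfbp4 -0.03 and that of Igfbp3 0.33, none with an unadjusted p under 0.05 in edgeR's test. The part of adipocyte content in the group values was not tested beyond these fits.

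Igfbp7 was most closely related to the endothelial list (Pecam1, Cdh5, Kdr and 5 others), with r = 0.84 and rho = 0.73 (adjusted permutation p = 0.00477 and 0.0396), and r = 0.85 without AAV-GFP-2012 and AAV-Notum-2041, and 7.48% of all other genes were as closely related to it. The summed level of that list was 683 to 1080.3 CPM in AAV-GFP and 640.1 to 862 CPM in AAV-Notum mice. No marker was at 0, and 7 of 8 had a log2 fold change below 0 (exact permutation p = 0.147 for the mean score). Igfbp5 was most closely related to the skeletal muscle list (r = 0.86, rho = 0.76, adjusted permutation p = 0.00477 and 0.0325) and the mural list (r = 0.83, rho = 0.82, adjusted permutation p = 0.00559 and 0.0187), with r = 0.78 and 0.67 without AAV-Notum-2042 and AAV-GFP-2012, and 1.14% and 2.04% of all other genes as close. The skeletal muscle markers summed to 8.81 to 791 CPM in AAV-GFP mice and to 8.03 to 3726 CPM in AAV-Notum mice, highest in AAV-Notum-2042, the mouse with the most Igfbp5. Igf1r rose with the lymphoid list (r = 0.72, rho = 0.74, adjusted permutation p = 0.0299 and 0.0335), but without AAV-GFP-2011 and AAV-GFP-2014 r was -0.13, so the relation rested on these mice. Igf1, Igf2r and Igfbp4 ran against the lymphoid list, with r = -0.73, -0.69 and -0.68 and rho = -0.80, -0.74 and -0.74 (adjusted permutation p for r 0.0272, 0.0380 and 0.0469), and without the same mice r was -0.88, -0.91 and -0.67. Igfbp3 had r = 0.66 and rho = 0.78 with it (adjusted permutation p = 0.0508 and 0.0256), and 0.89 without these mice. From 10.8% to 25.7% of all other genes were as far as these members on the same side of the lymphoid list. The lymphoid markers summed to 7.81 to 1689 CPM in AAV-GFP and to 537 to 2375 CPM in AAV-Notum mice. Of these 12 of 12 had a log2 fold change above 0, none with an unadjusted p under 0.05 in edgeR's test (exact permutation p = 0.0887 for the mean score).

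Igfbp2 followed the hepatocyte list (Alb, Apoa1, Apoa2, Ttr and 4 others), with r = 0.86 and rho = 0.82 (adjusted permutation p = 0.00440 and 0.0187), and r = 0.70 without AAV-GFP-2011 and AAV-GFP-2013, and 0.681% of all other genes were as close. Within the AAV-GFP mice r was 0.97 and within the AAV-Notum mice 0.61. AAV-GFP-2013, with 21.8 CPM of Igfbp2, had 3805 CPM of Alb, and AAV-GFP-2011, with 0 reads of Igfbp2, had 44.0 CPM. Other mice departed from this order: AAV-Notum-2031 had the least Alb (17.8 CPM) with 3.15 CPM of Igfbp2, and AAV-GFP-2012 had 105 CPM of Alb with 0.536 CPM of Igfbp2. Leaving out Cyp2e1, which fat also expressed at 1552 to 6979 CPM, the summed level of the list was 5288 CPM in AAV-GFP-2013, 1399 CPM in AAV-GFP-2014, 759 CPM in AAV-Notum-2041 and 20.0 to 319 CPM in the other 9 mice. Igfbp1 had most of its reads in the same AAV-GFP mice. With the hepatocyte score as a covariate the log2 fold change of Igfbp2 was 1.25 (unadjusted p = 0.211 in edgeR's test), against -1.54 without it.

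**Figure D5:**
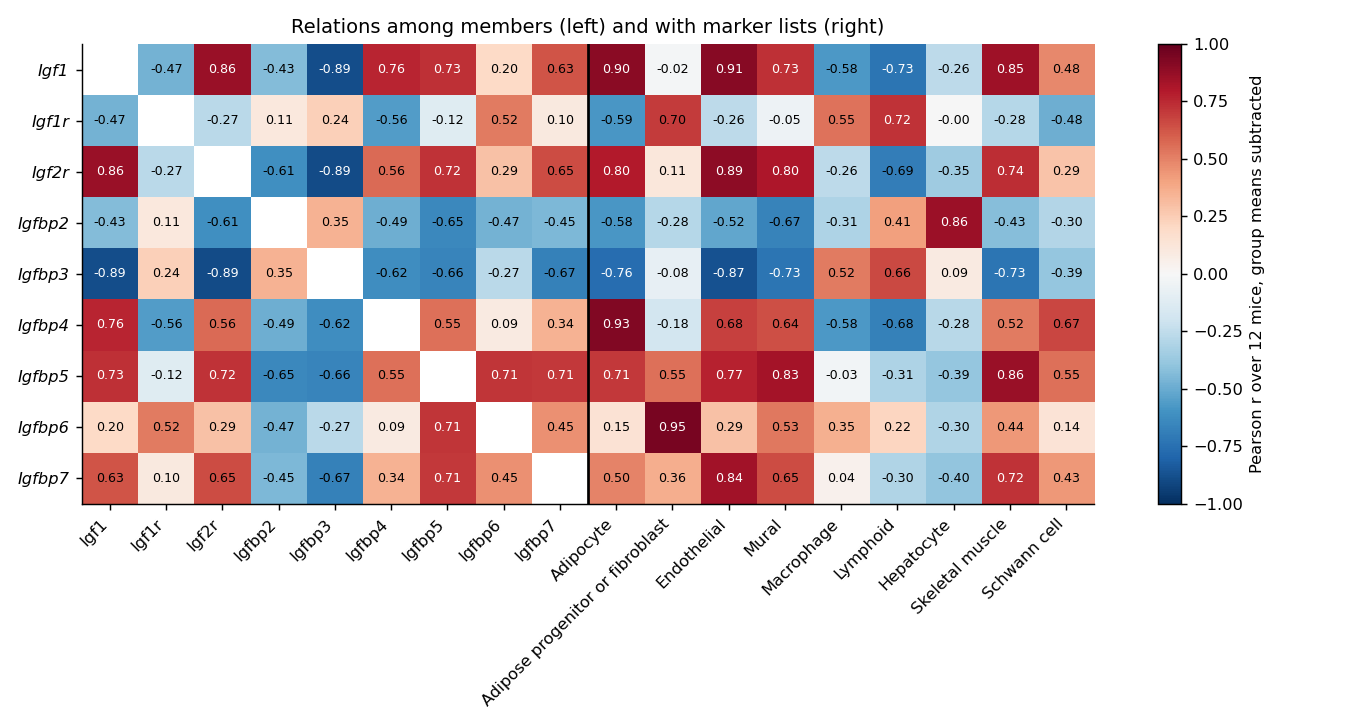
Pearson r over the 12 mice after subtraction of the group means, for each of the 9 genes (rows) with the other members (left of the line) and with 9 marker lists (right), red for positive and blue for negative. Igfbp3 is negative with Igf1 (-0.89) and Igf2r (-0.89), and Igfbp6 stands out by its value of 0.95 with the progenitor or fibroblast list.

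RNA quality and gene length were set against the members in the same way. No member passed an adjusted permutation p of 0.05 for r with the RNA integrity number, where the largest r was 0.58 for Igf1r (rho = 0.49, adjusted permutation p = 0.316 and 0.449 over 27 relations). The dependence of all genes on exon length in a mouse (the slope of centred log2 CPM on log2 exon length) had r = 0.80 with Igf2r, 0.76 with Igf1 and -0.69 with Igfbp3 (rho = 0.80, 0.77 and -0.76). The adjusted permutation p was 0.0536, 0.0536 and 0.116 for r and 0.0562 for each rho. Igf1 and Igf2r have 9904 and 9308 bp of exon and Igfbp3 has 3130 bp, beside a median of 4132.5 bp over the genes tested. This order did not extend to every member, since Igf1r, the longest at 16791 bp, had r = -0.42, and the short Igfbp7 (1209 bp) and Igfbp6 (1112 bp) had 0.46 and -0.01. The part of transcript length in the inverse relation of Igfbp3 to Igf1 and Igf2r was not tested.

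For the 3 members of smallest p, the genes most like them over the 12 mice, after subtraction of the group means, were listed by Pearson r. Those of Igfbp6 were Srsf5 (r = 0.92), Ecm1 (0.92) and Pla1a (0.92), with log2 fold changes of 0.03, -0.37 and -0.24. Those of Igfbp3 were Alkbh4 (0.96), Snrnp25 (0.96) and Cfl1 (0.96), with log2 fold changes of 0.51, 0.70 and 0.31. Those of Igf2r were Gm11816 (0.96), Kansl3 (0.96) and Sik2 (0.95), with log2 fold changes of -0.21, -0.16 and -0.53. None of these 9 genes passed an adjusted p of 0.05 in edgeR's test.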

How the data were processed

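iWAT RNA of 12 mice had been made into TruSeq libraries and read single-end on a HiSeq4000. The authors mapped reads to mm10 with STAR 2.3.1 and tested them with DESeq2. The raw table holds, as deposited, whole-number counts of reads per gene without normalization. The other table holds log2 values that the authors computed as reads divided by a size factor, plus 1, and when this was inverted, 100% of values between 1 and 1000 reads, the range checked, came out whole (within 0.1). The recovered reads are not those of the raw table: summed over mice they were 0.923 times the raw reads for Igfbp7 and 1.01 to 1.03 times for the other 8 members. The program behind either count is not given in the sources used here. Total counts ran from 14711113 to 21618860 per mouse, so counting error is small beside the spread between mice except for genes of few reads. The floor of 3 reads for a count of 0 covers counting error only, and the intervals of the fold changes cover the spread between mice.

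The raw counts were then fitted with edgeR 4.0.16 (R 4.3.3): filterByExpr (minimum count 10, total 15), TMM, estimateDisp, glmQLFit and a two-sided glmQLFTest, with Benjamini-Hochberg adjustment over 15585 genes and a threshold of 0.05. SEs were derived from the log2 fold changes and the F statistics. CPM are TMM-scaled, and a prior count of 2 was added for log2 CPM. TPM used merged exons of GENCODE vM21 (GRCm38), which matched 54069 of 54134 genes. Exact permutation tests of mean log2 CPM covered all 924 assignments of mice. Relations were computed on log2 CPM minus group means with 100000 permutations, two-sided, and adjusted within each family. Promoters come from RefSeq (GRCm38.p6). The members and lists were chosen with earlier results of these data known. All 9 members are named, and of each partner list the genes with an unadjusted p under 0.05 or else the one of largest change. The fit was tested on simulated counts, where it gave unbiased fold changes and few false calls but missed a large share of the changed genes, so a gene that misses the threshold is not shown to be unchanged. Other settings tried were DESeq2 1.42.0 (independent filtering on or off), limma-voom (limma 3.58.1), RLE or no factors, other filters, a robust fit, covariates, the authors' log2 values, the recovered reads, and mice left out.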

Additional observations from a re-analysis of the deposited data

Results flagged for a closer look

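In 38 groups of 6 mice (9 members and 10 named partner genes in 2 treatments), 4 held a mouse whose distance from its nearest neighbour was too large a part of the group's range by Dixon's test at the 95% level, and chance alone marks about 1 group in 20. Igfbp2 was 21.8 CPM in AAV-GFP-2013 and 0 to 6.44 CPM in the other AAV-GFP mice. Igfbp4 was 802 CPM in AAV-Notum-2042, against 493 to 598 CPM in the rest of its group. Igfbp7 was 618 CPM in AAV-GFP-2012, whose RNA was isolated later than that of the other mice, against 344 to 426 CPM. M6pr was lowest in AAV-Notum-2033, at 134 CPM against 141 to 145 CPM.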

How the results depend on the processing

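No setting gave any of the 9 genes an adjusted p below the threshold of 0.05. At an unadjusted p of 0.05, where the main analysis had 0 higher and 0 lower, 1 member was higher with DESeq2 (with and without independent filtering) and with a minimum of 1 read over all mice. Lower was 1 member with DESeq2 (both forms), RLE size factors, RNA integrity as a covariate, the recovered reads, and the adipocyte, hepatocyte or progenitor scores (these 3 added after seeing the data), and 2 members with the lymphoid score or without AAV-GFP-2011 and AAV-GFP-2014. Leaving out single mice gave 0 to 1 higher and 0 to 1 lower. Over the 15585 genes of the main fit, 1487 were lower and 723 higher. Of these genes 1537 were lower with RLE size factors, 928 with RNA integrity and 773 with the lymphoid score. With the adipocyte, hepatocyte and progenitor scores 1391, 1745 and 1359 were lower. The fit without AAV-GFP-2011 and AAV-GFP-2014 had 792 of 15994 lower, and the recovered reads 1506 of 16080. DESeq2 had 1874 of 31900 lower and 1067 higher, and the minimum of 1 read 1273 of 31947 higher. Of the partner genes, 1 was higher at an adjusted p of 0.05 with DESeq2 in both forms. In that measure 3 were lower with independent filtering, 2 without it, 1 without normalization factors, 1 with the adipocyte score, and 0 to 1 with single mice left out. Over all genes DESeq2 passed 367 as lower and 84 as higher with independent filtering, and 235 and 45 without it. Without normalization factors 43 were lower, with the adipocyte score 137, and with single mice left out 1 to 146. At the unadjusted threshold 3 partner genes were lower with the lymphoid score and 3 without AAV-GFP-2011 and AAV-GFP-2014, against 5. With the hepatocyte score 1 was higher, against 3. Over all genes lower calls fell from 1487 to 773 and 792 in these settings, and 797 were higher with the hepatocyte score, against 723. With single mice left out 1053 to 2138 of all genes were lower and 455 to 1625 higher. Directions turned for Igf1 (0.20 with the lymphoid score, 0.050 without AAV-GFP-2011 and AAV-GFP-2014, 0.070 with the adipocyte score), Igfbp2 (0.29 with limma-voom, 0.020 on the authors' log2 values, 1.25 with the hepatocyte score), Igfbp4 (0.015 with the lymphoid score), Igfbp5 (-0.0079 with the hepatocyte score) and Igf2bp2 (-0.076 with the hepatocyte score). With single mice left out Igfbp5 ran from -0.012 to 0.21 and Igf2bp2 from -0.011 to 0.16. The cause of these turns was not tested. Igfbp2 had no value with a filter of at least 10 counts in every mouse. Igf1r, Igf2r, Igfbp3, Igfbp6 and Igfbp7 kept their direction in all 28 alternatives. No paired analysis was possible because the mouse numbers differ between the groups. Igfbp2 had 0 to 373 reads per mouse, and the mouse with 0 reads had the larger library of these 2.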
